A study of Mus musculus with 12 samples.

Results

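The sequences described here are the small RNAs that the authors assigned to coding exons in control DN3 thymocytes. They were taken as the rows of the deposited list of genic small RNAs whose category is coding exon, leaving out replication-dependent histone genes (symbols starting with Hist1h, Hist2h, Hist3h or Hist4h). This gave 6846 of the 54267 sequences of that list (12.6%), from 3807 of its 10847 genes, and left out 382 sequences of 41 histone genes. Each entry was a distinct sequence with its position, strand and gene, and carried no read number. All counts below are therefore numbers of different sequences, and an abundant RNA and an RNA read once weigh the same.

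The study cloned small RNAs from 4 mouse cell types in 3 genotypes (control, Drosha and Dicer), with 1 library for each of the 12 combinations. DN3 cells are immature T cell precursors with neither CD4 nor CD8, the stage at which the T cell receptor beta chain is rearranged. The control DN3 cells came from the thymus of Lck-cre mice (Cre driven by the promoter of the T lineage kinase Lck) on a backcrossed C57BL/6 background, were sorted by flow cytometry, and were taken at 6 to 7 weeks of age. The labels give neither the floxed alleles of the controls nor the number of animals pooled. RNA of 19 to 30 nt was cut from a gel, and adaptors were joined only to ends of the kind that RNase III enzymes leave (phosphate at 5′, hydroxyl at 3′). A list of genic sequences was analysed for this library only, so the values have no replicate, no genotype comparison and no test. Intervals are 95% exact (Clopper-Pearson) binomial intervals, which cover counting error over sequences only.

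Short pieces of messenger RNA enter small RNA libraries by several routes, among them turnover of the transcript, processing of a hairpin that lies inside an exon, and release of fragments at promoters or splice sites. Drosha with its partner Dgcr8 cuts hairpins out of primary transcripts, and Dicer cuts the freed hairpin into a duplex of mature length. Splice-site RNAs are a known class of very short nuclear RNAs whose 3′ ends lie on the last base of an exon, next to the splice donor. Small nucleolar RNAs (snoRNAs) of the box C/D kind guide methylation of other RNAs, are cut from introns and carry a box C near their 5′ end.

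The sequences in the next lines show a pattern that recurred across genes: sense sequences whose 3′ end is the last base of an internal exon. Capitals mark the last 2 bases of the exon, and positions are GRCm38, found by matching each sequence to GENCODE M21 transcripts. Chd2, a chromatin remodeler of the CHD family, had the most of them.
Chd2, end of exon 2, chr7:73540772-73540789, minus strand: acacagcaatgcatcgAG
Chd2, end of exon 3, chr7:73519477-73519494, minus strand: atagctgatgtgaagaAG
Chd2, end of exon 4, chr7:73515726-73515742, minus strand: ttaatgttaaggaagAG
Chd2, end of exon 4, chr7:73515726-73515745, minus strand: gatttaatgttaaggaagAG
Chd2, end of exon 5, chr7:73514090-73514107, minus strand: gaggcagctgaaaaaaCA
Chd2, end of exon 6, chr7:73507806-73507823, minus strand: aagaccggtccctagaAG
Chd2, end of exon 9, chr7:73501909-73501925, minus strand: gatgaggtcaagcaaTG
Chd2, end of exon 10, chr7:73500935-73500952, minus strand: tagtagagagagtaatAG
Chd2, end of exon 35, chr7:73447135-73447151, minus strand: atcaaattgtggaggAG
Trp53, end of exon 4, chr11:69587616-69587632, plus strand: agtctgttatgtgcaCG
Trp53, end of exon 4, chr11:69587613-69587632, plus strand: ccaagtctgttatgtgcaCG
Trp53, end of exon 8, chr11:69589693-69589709, plus strand: agggagcgcaaagagAG
Mcm7, end of exon 6, chr5:138168810-138168827, minus strand: atgaagattcaagagcAT
Mcm7, end of exon 9, chr5:138167841-138167869, minus strand: ccagtctcctcaaggcatgaagatcagAG
Mcm7, end of exon 14, chr5:138165052-138165069, minus strand: aaagggacagacagctAG

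Near the ends of coding exons, the 3′ ends of sequences were most frequent on the very last base of the exon. Of the 4710 sense sequences that lay in the coding sequence of an exon other than the last, 679 ended exactly on the last base of the exon (14.4%, 95% interval 13.4 to 15.5). At each distance from 1 to 60 bases inside the exon, between 19 and 45 sequences ended, with a median of 29.5. The other edge of the exon showed no such peak: 16 of 3516 sequences in exons after the first began on the exon's first base (0.455%), against 14 to 32 at distances of 1 to 60 bases, with a median of 23. On the opposite strand, 5 of 798 antisense sequences began opposite the last base of an exon (0.627%). The list gives each sequence as 1 ungapped stretch of the genome, so how sequences that cross a splice junction were treated cannot be read from it. Matching was to transcripts, so 3′ ends past the exon's last base, inside the intron, were not measured.

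**Figure D1:**
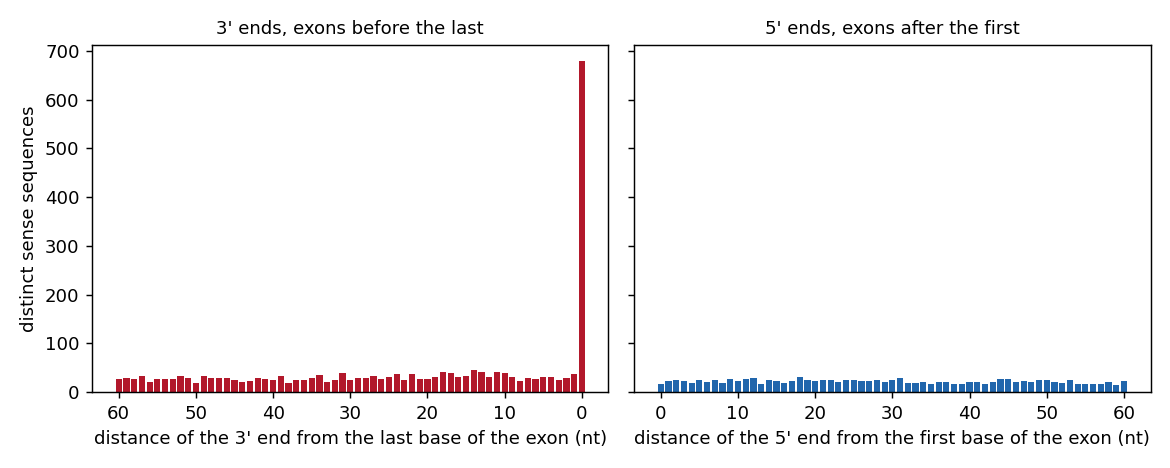
Number of distinct sense coding sequences (y axis) by the distance in nt of their 3′ end from the last base of the exon (left, exons before the last) and of their 5′ end from the first base of the exon (right, exons after the first). The bar at distance 0 on the left holds 679 sequences, against 19 to 45 at distances of 1 to 60 nt, and the bar at distance 0 on the right holds 16.

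The exon-end sequences had 2 preferred lengths. Of the 679, 458 were 17 to 18 nt long (67.5%), and 125 were 26 to 29 nt long (18.4%). At 17 nt, 132 of 281 sense coding sequences in exons before the last ended on the exon's last base (47.0%), and at 18 nt 326 of 827 did (39.4%). At 22 nt, the length of a typical miRNA, 1 of 372 did (0.269%). Over 21 to 24 nt the count was 24 of 1429 (1.68%), and at 28 nt it rose again to 44 of 170 (25.9%).

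Most of the exon-end sequences, 653 of 679, lay in exons after the first. The ends of first exons were not counted, so the values below are shares of sequences and not rates per exon end. In exon 2 or later, 653 of 3034 sequences ended on the last base (21.5%, 20.1 to 23.03), against 26 of 1676 in first exons (1.55%, 1.02 to 2.26). Within exon 2 or later, 446 of 740 sequences of 17 to 18 nt ended there (60.3%, 56.6 to 63.8), 22 of 874 of 21 to 24 nt (2.52%) and 118 of 502 of 26 to 29 nt (23.5%, 19.9 to 27.5). The same count in sequences that the authors assigned to 5′ UTR exons was 17 of 5610 in first exons (0.303%) and 12 of 158 in exon 2 or later (7.59%, 3.99 to 12.9). As a share of sequences, exon-end sequences were thus fewer in first exons than in later ones in both categories. The intervals count each sequence of 1 library as independent, so this difference was not tested.

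**Figure D2:**
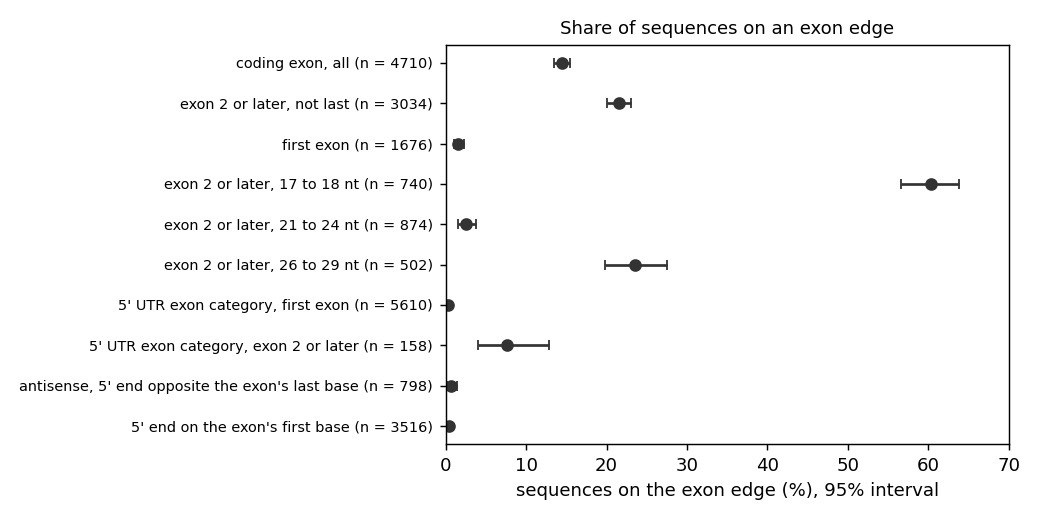
Percent of sequences on an exon edge (x axis) with 95% exact binomial intervals over sequences, for coding-exon sequences by exon and length, for the 5′ UTR exon category, and for the antisense strand and the 5′ edge. The share is 60.3% for 17 to 18 nt in exon 2 or later, 23.5% for 26 to 29 nt and 2.52% for 21 to 24 nt.

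The exon-end sequences were spread over many genes. They came from 572 genes and 660 different exon ends, first exons included. The transcripts used had 36950 ends of coding exons after the first and before the last. Of these internal exon ends, 1.72% had such a sequence. In 487 genes there was 1 such sequence, and 15 genes had 3 or more. Most stood alone: 629 of 679 overlapped no other coding-exon sequence on the same strand. At 19 exon ends there were 2 sequences, and in 12 of these pairs the lengths differed by 1 to 2 nt. In 4 pairs the shorter was 16 to 20 nt and the longer 26 to 30 nt. Of the exon-end sequences in exon 2 or later, 61.3% had AG as their last 2 bases. The share was 57.3% of the 36950 internal exon ends and 6.34% of the other sense coding sequences in exons of the same ranks. A sequence that ends on the last exon base carries the exon's last 2 bases by definition. The gap to the 6.34% therefore follows from how these sequences were chosen. Over all 679 exon-end sequences, the first base was A in 31.4%, C in 25.3%, G in 22.5% and T in 20.8%.

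In Chd2, 9 of the 12 sequences were exon-end sequences, and they lay on 8 of its 39 exons. All 9 were 17 to 20 nt long. Arpp21, which codes for a cAMP-regulated phosphoprotein abundant in thymocytes, had 4 sequences, and all 4 were exon-end sequences, of 17, 18, 18 and 29 nt. Trp53, which codes for the tumour suppressor p53, had 3, all at exon ends, on exons 4 and 8 of 11. Mcm7, a subunit of the replicative helicase, had 3 of 4. The chromatin remodeler Smarca4 had 3 of 7, and Tmem131 had 3 of 14. The other genes with 3 were Ccdc18, Dnm2, Elmo3, Fyb, Gm614, Gnl3, Man2c1, Pcbp2 and Whsc1l1.

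Genes of early T cell development held 62 coding-exon sequences, of which 8 were exon-end sequences, beside 679 of all 6846. They are shown as examples from genes known in these cells. The next lines print those of the Notch receptors, of the interleukin 2 receptor alpha chain Il2ra (CD25), of the CD3 delta chain Cd3d and of 3 transcription factors, with the last 2 exon bases in capitals and GRCm38 positions.
Notch1, end of exon 6, chr2:26480974-26481001, minus strand: tactgcgaatgtccgcatgggcgcacAG
Notch1, end of exon 18, chr2:26472784-26472801, minus strand: acctgactgtactgagAG
Notch3, end of exon 11, chr17:32153753-32153771, minus strand: tgtcctcccggaaccacAG
Il2ra, end of exon 2, chr2:11674446-11674471, plus strand: cagcaactgccagtgcaccagcaaCT
Cd3d, end of exon 4, chr9:44986083-44986100, plus strand: aatgagcagctgtatcAG
Bcl11b, end of exon 2, chr12:107989465-107989482, minus strand: agcaggagaacattgcAG
Lef1, end of exon 10, chr3:131204287-131204304, plus strand: tacaggagtcgacttcAG
Tcf12, end of exon 6, chr9:71943954-71943971, minus strand: ggactctcaggctgtcAG

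The lengths of all 6846 coding-exon sequences ran from 15 to 33 nt, with a median of 21 nt. The most frequent length was 18 nt, with 1117 sequences (16.3%), followed by 19 nt with 708. Without the exon-end sequences, 18 nt was still the most frequent, with 791. In all, 1822 sequences (26.6%) were shorter than the lower bound of the gel fraction given in the labels, 4895 lay within 19 to 30 nt and 129 were longer. The share of 21 to 23 nt was 24.2% (23.2 to 25.2), against 26.7% in the 5′ UTR category, 30.3% in the 3′ UTR category and 21.9% in introns, with histone genes left out of each. Sequences of 18 nt made up 8.30% of the 3′ UTR category, 17.2% of the 5′ UTR category and 15.9% of introns. The first base was A in 30.8%, G in 26.5%, C in 22.7% and T in 20.04% (19.1 to 21.01), and T came first in 27.5% of the 3′ UTR category. The mean GC content was 57.0% ± 13.0 (SD over sequences), between 64.7% in the 5′ UTR and 47.5% in the 3′ UTR category.

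**Figure D3:**
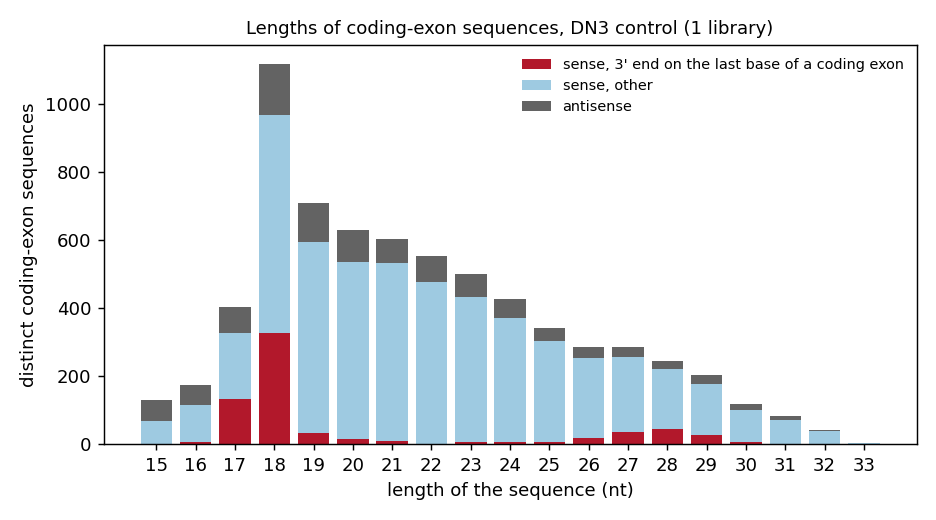
Number of distinct coding-exon sequences (y axis) at each length in nt (x axis), with sense sequences that end on the last base of a coding exon, other sense sequences and antisense sequences stacked. The peak at 18 nt holds 1117 sequences, of which 326 are exon-end sequences, and exon-end sequences reappear at 26 to 29 nt.

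Sense sequences showed little preference among the codon positions. Of 5324 sense sequences placed in the coding sequence, 33.4% began on the first base of a codon, 36.0% on the second and 30.6% on the third. For the 819 of 26 to 29 nt, the length of a ribosome footprint, the shares were 32.2%, 36.4% and 31.4%. For the 1205 of 17 to 18 nt they were 37.3%, 34.9% and 27.7%, with exon-end sequences included. Over all lengths without the exon-end sequences, the shares were 32.6%, 36.2% and 31.2% of 4651.

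Most coding-exon sequences followed the strand of their gene. Sense sequences numbered 5838 in 3340 genes, and antisense sequences 1008 in 791 genes, which is 14.7% (13.9 to 15.6). In 324 genes both were found. The antisense share was 10.2% (9.504 to 10.9) in the 5′ UTR category, 8.12% (7.12 to 9.21) in the 3′ UTR category, 31.2% in introns and 56.8% in the 5′ flank. It was high among the shortest sequences, at 62 of 129 (48.1%) for 15 nt, 32.9% for 16 nt and 18.9% for 17 nt, and 13.6% for 18 nt. The part of chance matches to the genome in the shortest lengths was not tested. Antisense sequences lay more often in the first exon, at 548 of 997 (55.0%) against 2008 of 5578 sense sequences (36.0%), for genes with a coding accession. Within the first 200 bases of the transcript the order was the other way, with 179 antisense (17.95%) and 1292 sense sequences (23.2%). Transcripts with a single exon held 91 of the antisense and 289 of the sense sequences. Their part in the first-exon shares was not tested. The median position in the transcript was base 477 for antisense and base 685.5 for sense sequences.

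The category was checked against a later annotation. Of the 6846 sequences, 6739 (98.4%) had an exact match in a GENCODE M21 transcript on the listed chromosome and in the listed orientation. Of these, 6732 matched at 1 such locus, 3 at more than 1 and 4 only across a splice junction of the transcript. Matches on other chromosomes, in the other orientation or outside transcripts were not counted. The values therefore do not measure unique mapping to the genome. In the coding sequence lay 6289 (93.3% of those placed), in a 5′ UTR 133, in a 3′ UTR 79, across a coding start or end 24 and in non-coding transcripts 214. Of the 212 in a UTR, 210 lay in an exon that also holds coding sequence. The category also held 183 sequences of 25 genes whose accession is of a non-coding RNA, so the label of coding exon does not describe those.

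The genes with most sequences were of 3 kinds. The first kind had 5′ UTR sequences of genes without introns: Jun, a subunit of the transcription factor AP-1, had 35 sequences, of which 31 lay in its 5′ UTR. Sox4, a transcription factor of lymphocyte development, had 25, of which 20 lay in the 5′ UTR, and the immediate early gene Ier5 had 17, of which 16 did. The related Jund had 15, all in the coding sequence and 6 of them antisense. The second kind were non-coding genes: Snord82 had 26, Rnu73b (Snord73b in RefSeq) 23, the U12 small nuclear RNA gene Rnu12 19, and the entry 449631 (Snord15b in RefSeq) 14.

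The third kind were coding genes with their sequences in the coding sequence. Dgcr8, the RNA-binding partner of Drosha, had 25, and the fatty acid desaturase Scd2 had 14. Notch1, the receptor that drives T cell commitment, had 16 sequences on 13 exons and in 15 clusters, so that almost no pair overlapped. Spen, a corepressor of Notch targets, and the splicing factor Srrm2 each had 12 sequences in 12 clusters. Tmem131 had 14 in 13 clusters, Topors, a ubiquitin and SUMO ligase, 14 in 7, Arglu1 11 in 7, and Hnrnpu, a nuclear RNA-binding protein, 11 in 9. Fam122a had 14 sequences, of which 7 were antisense, and the mitochondrial ribosomal RNA methyltransferase gene Mrm1 had 14, of which 9 were antisense.

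**Figure D4:**
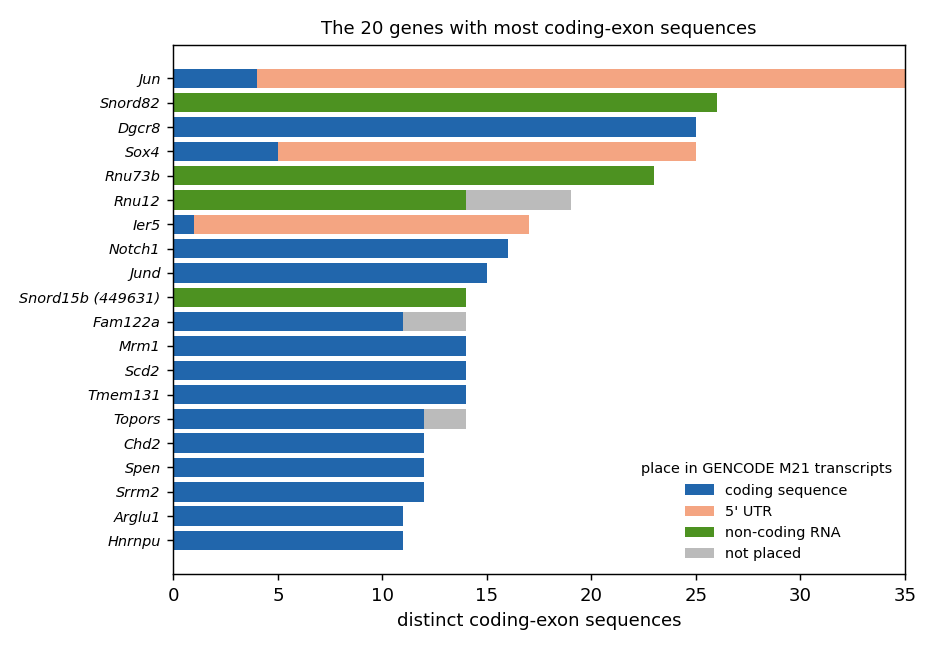
Number of distinct coding-exon sequences (x axis) of the 20 genes with most, with the place of each sequence in GENCODE M21 transcripts in colour. Jun, Sox4 and Ier5 are mostly 5′ UTR, Snord82, Rnu73b, Rnu12 and Snord15b are non-coding RNA, and the others are coding sequence apart from sequences not placed.

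Few genes had many sequences. In 2336 genes (61.4%) there was 1 sequence, 1301 genes had 2 to 4, 143 had 5 to 9 and 27 had 10 or more. The 20 genes with most held 343 sequences (5.01%), and the top 10 held 215 (3.14%). The median coding length was 1509 nt for genes with 1 sequence, 1800 nt for genes with 2 to 4 and 1917 nt for genes with 5 or more. The rows fell into 6017 clusters, a cluster being a run of same-strand sequences that each overlap the next by at least 1 base. Of these, 5575 held a single sequence (81.4% of all sequences), 321 held 2, and 121 held 3 or more, with 629 sequences (9.19%). Of the 121, 19 lay on non-coding genes, as did 4 of the 9 clusters of 10 or more.

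The large clusters differed in which end was shared. Snord clusters shared their 5′ end. The 26 sequences of Snord82 began on 2 neighbouring bases and ended on 15, and the 23 of Rnu73b also began on 2 and ended on 15. Snord15b had 14 sequences with 2 starts and 10 ends, and Snord87 had 9 with 2 starts and 8 ends. Snord22 differed, with 8 starts and 1 end. In all, 121 sequences came from 13 genes that RefSeq names Snord, and 99 of them (81.8%) held the 6 bases TGATGA, the core of box C, on the sense strand. Among the other coding-exon sequences 76 of 6725 did (1.13%), and among all genic sequences 1623 of 54267 did (2.99%). The reverse complement TCATCA occurred in none of the 121 and in 26 of the 6725. The 121 sequences are not independent, as most overlap others of the same gene. All 26 of Snord82 and all 23 of Rnu73b held TGATGA, and none of Snord22, Snord34, Snord35b and Snord35a did. The next lines show the longest and the shortest sequence of 3 Snord clusters that held TGATGA, with these bases in capitals.
Snord82, longest, chr1:86356296-86356328, minus strand: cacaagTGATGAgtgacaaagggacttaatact
Snord82, shortest, chr1:86356312-86356327, minus strand: acaagTGATGAgtgac
Rnu73b, longest, chr3:86140657-86140688, minus strand: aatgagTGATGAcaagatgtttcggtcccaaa
Rnu73b, shortest, chr3:86140673-86140688, minus strand: aatgagTGATGAcaag
Snord87, longest, chr1:9942517-9942544, minus strand: cacaaTGATGActtaagtttttgccgtt
Snord87, shortest, chr1:9942528-9942544, minus strand: cacaaTGATGActtaag

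Rnu12 had the opposite layout. Its 19 sequences, of 15 to 32 nt, had 16 starts and 3 ends, and 14 of them shared 1 end. Rnu11, another small nuclear RNA of the minor spliceosome, had 9 sequences with 8 starts and 8 ends. Rmrp, the RNA of RNase MRP, had 8 sequences with 1 start and 8 ends. The long non-coding RNAs Malat1 and Neat1 (listed as 2310043N10Rik) had 4 sequences each, in 1 cluster each. The Jun cluster of 23 sequences spread over 71 bases of the 5′ UTR, with 17 starts and 19 ends, and the Ier5 cluster of 14 over 77 bases, with 9 starts and 14 ends. Those 2 clusters thus had no preferred end, unlike the Snord and Rnu12 clusters.

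**Figure D5:**
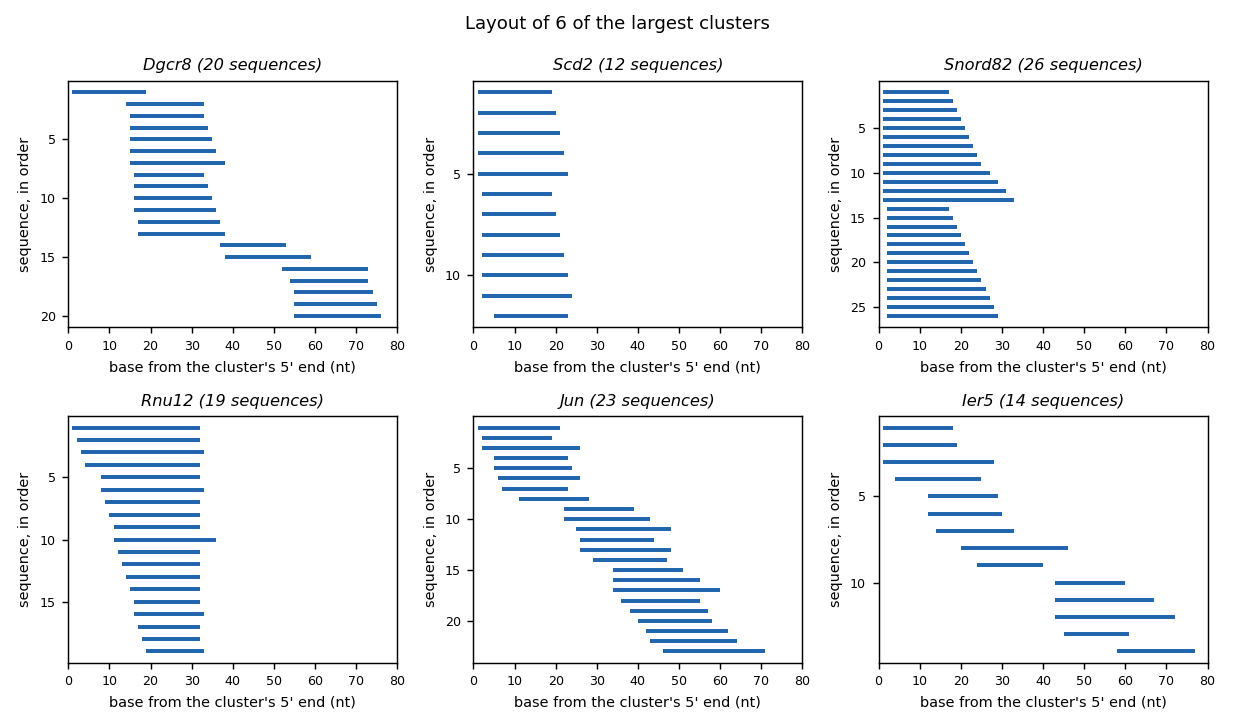
Each line is 1 distinct sequence, drawn from its first to its last base in nt from the 5′ end of the cluster (x axis), in order of start (y axis), for the clusters of Dgcr8 (20), Scd2 (12), Snord82 (26), Rnu12 (19), Jun (23) and Ier5 (14). Snord82 and Scd2 share their starts, Rnu12 its end, Dgcr8 forms separate groups, and Jun and Ier5 are staggered.

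The clusters of Dgcr8 and Scd2 overlapped annotated miRNA hairpins inside the coding sequence. The Dgcr8 cluster had 20 sequences over 76 bases of exon 2 (chr16:18284247-18284322, minus strand, GRCm38), and 19 of them lay within the Mir1306 hairpin (chr16:18284239-18284317). Of these, 3 began on the first base of miR-1306-3p and 1 was identical to it, and the sequences covered 63 of the hairpin's 79 bases. None began on the annotated first base of miR-1306-5p. The Scd2 cluster had 12 sequences over 24 bases, with 3 starts and 6 ends (chr19:44303170-44303193, plus strand). Of these, 7 lay within the Mir5114 hairpin (chr19:44303171-44303231), 6 of them began on the first base of miR-5114 and 1 was identical to it. The 7 covered 23 of that hairpin's 61 bases, from base 1 to base 23, and none of the rest. The other 5 began 1 base before the hairpin entry. The mature miRNAs are given in the next lines from RefSeq, with the seed (bases 2 to 8) in capitals, followed by the longest and most overlapped coding-exon sequences of both clusters.
miR-1306-5p: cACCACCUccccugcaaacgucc
miR-1306-3p: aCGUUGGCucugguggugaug
miR-5114: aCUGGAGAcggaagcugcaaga
Dgcr8, longest, chr16:18284285-18284308, minus strand: ccacctcccctgcaaacgtccagt
Dgcr8, most overlapped, chr16:18284290-18284307, minus strand: cacctcccctgcaaacgt
Scd2, longest, chr19:44303170-44303192, plus strand: aactggagacggaagctgcaaga
Scd2, most overlapped, chr19:44303171-44303188, plus strand: actggagacggaagctgc

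Of 1005 RefSeq hairpins searched, 8 held 42 coding-exon sequences of 8 genes. Besides Mir1306 and Mir5114 these were Mir5121 with 6 sequences of Snord33, Mir5130 with 3 of Kctd12, Mir7654 with 3 of Arglu1, Mir7658 with 2 of Klhl17, Mir8094 with 1 of Bat1a and Mir7646 with 1 of Armcx5. The separate miRNA lists of the 3 DN3 and the 3 regulatory T cell libraries held 1422 distinct sequences. None of the 6846 coding-exon sequences, and none of the 54267 genic sequences, was among them, and they had no entry named for miR-1306 or miR-5114. As the whole genic list shared no sequence with these lists, the lookup does not set coding-exon sequences apart from other genic ones.

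Antisense clusters were few and small: of 921, 11 had 3 or more sequences. The largest lay on Mmp25, a membrane-anchored metalloproteinase gene, with 11 sequences of 15 to 19 nt. Mrm1 followed with 9 sequences of 18 to 28 nt over 37 bases of its coding sequence (chr11:84818863-84818899, GRCm38), with 6 starts and 7 ends. Fgg, Pnrc1 and Mfsd10 had 4 each, and Tns1, Cyp4f17, Taf6l, Fam122a and the RNase P RNA gene Rpph1 had 3 each. The Tns1 cluster was made of sequences of 15 to 16 nt, where the antisense share was 48.1% and 32.9%, and the Mmp25 cluster had a median length of 17 nt. The part of chance matches in the Mmp25, Tns1 and Fgg clusters was not tested. The Mrm1 sequences are shown by their most overlapped and their longest member.
Mrm1 antisense, most overlapped, chr11:84818869-84818886, plus strand: gccgaggaagtgagcgga
Mrm1 antisense, longest, chr11:84818863-84818890, plus strand: gtctacgccgaggaagtgagcggagcgc

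Markers of DN3 cells were among the genes with coding-exon sequences, while most markers of other cell types were not in the genic list in any category. Over the whole genic list, 35.1% of genes had a coding-exon sequence, with a median of 1 sequence. Of 26 genes of early T cell development, 23 were in the genic list. Of these, 17 had 1 or more coding-exon sequences, 62 in all, with a median of 3. Of the 26, Ptcra, Cd3e, Tcf7 and Cd44 were among those with none. Notch1 had 16, Rag1, the recombinase subunit that cuts antigen receptor genes, had 8 in 8 clusters, and Il2ra had 5. Dntt, which adds untemplated bases at receptor junctions, and Notch3 had 4 each. Bcl11b, Cd3g, Lat, Satb1, Tcf12 and Thy1 had 3 each. Of 6 B cell markers 2 were in the genic list, and neither had a coding-exon sequence. None of the 6 myeloid and 6 erythroid markers was in the genic list, so those lists could give no coding-exon sequence. Of 6 genes listed for mature T cells 3 were in it, and Il7r had 1 sequence. Whether these genes set mature T cells apart from DN3 cells was not tested. Of 5 markers of thymic epithelium Epcam alone was in it, and it had 1 sequence. With so few of these markers listed, their counts cannot be read against the 35.1%.

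Lists of housekeeping genes differed in how many members had a coding-exon sequence. Of 19 genes of RNA binding and splicing in the genic list, 13 had 62 sequences, a median of 4 a gene, led by Hnrnpu with 11, Hnrnpl with 9, Sfrs1 (the splicing factor SRSF1) with 7, nucleolin (Ncl) with 6 and the helicase gene Dhx9 with 5. Of 18 chaperones, 15 had 41, led by Hsp90b1 of the endoplasmic reticulum with 6, and Tcp1, a subunit of the chaperonin, had 4. Of 20 genes of DNA replication and cell cycle, 12 had 35, led by the helicase subunit gene Mcm6 with 10, and Mcm7 and the topoisomerase gene Top2a had 4 each. Of 20 translation factors, 11 had 34, led by Eif4g2 with 8, the poly(A)-binding protein gene Pabpc1 with 6, the elongation factor gene Eef2 with 5, Eif3a with 4 and Eif4g1 with 3.

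In the remaining lists a smaller share of the genes had a coding-exon sequence. Of 17 cytoskeleton genes, 7 had 14 sequences, with 4 in Tubb5 and 3 in Myh9. Of 13 glycolysis genes, 3 had 4 sequences, with 2 in hexokinase 1 (Hk1). Of 9 genes of antigen presentation, 4 had 7, with 3 in the peptide transporter gene Tap2 and 2 in B2m. Of 13 genes of the miRNA machinery, 6 had 35, of which 25 were those of Dgcr8. Rnasen, the older symbol of Drosha, had 3 sequences in 3 exons, the RNA helicase gene Ddx17 had 3, Tnrc6a had 2, and Dicer1 and the hairpin exporter gene Xpo5 had 1 each. Gene length and mRNA level were not adjusted for in these counts, and their part in the differences between lists was not tested.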

How the data were processed

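Small RNA sequences of 1 control DN3 library were analysed. The authors clipped adaptors, per the labels. Which aligner and genome build they used is not given in the sources used here. In the deposited genic list are positions (start, end, strand), gene and category for 54267 distinct sequences, with no read number or depth. End minus start equals the length in every row, so starts count from 0. The per-million scores of the deposited DN3 and regulatory T cell miRNA lists served only to look up sequences.

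Sequences were matched exactly, on both strands, to GENCODE M21 transcripts (GRCm38), and GRCm38 positions come from these matches, because the listed start plus 1 equalled the GRCm38 start for only 167 sequences (2.48% of those placed). Only matches on the listed chromosome and in the listed orientation were kept. For each sequence 1 transcript was used, coding sequence before 5′ UTR, 3′ UTR and non-coding. Python 3.11.15, pandas 2.3.3, scipy 1.17.1 and matplotlib 3.10.9 were used, and placement and clustering were tested on simulated data.

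Members and gene lists were chosen with earlier results of these data known, and the exon-end measure was added after the data were seen. Named were the 20 genes and 10 clusters with most sequences, the 10 antisense clusters with most, and up to 5 genes a list with at least 2 sequences. Other names (exon-end genes, Snord genes, hairpins, single sequences, genes of early T cell development with none) were chosen after their values were seen. Alternatives changed the length minimum, the overlap rule, the genes left out and the weight of each gene. CD4 T cell and fibroblast lists were not used here.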

Additional observations from a re-analysis of the deposited data

How the results depend on the processing

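No paired analysis was possible because every group has 1 library and the genic list was analysed for 1. Of 50 alternatives, 39 moved a value by less than its interval, or a count by less than 1.5 times, and 11 moved it further. The 39 include the alternatives that kept sequences on 1 row only and those that left out sequences of the miRNA lists. Neither kind removed any sequence, so they could not move a value and do not speak for stability. With sequences of at least 20 nt only, 4316 remained, the antisense share was 12.7%, the share of 21 to 23 nt was 38.4% and the exon-end share was 5.99%, since most exon-end sequences are shorter. With each gene counted once, the antisense share was 15.99% and the share of 21 to 23 nt was 22.6%. With histone genes kept, the 10 genes with most sequences held 5.09%, and clusters of 3 or more held 12.2%. The share in clusters of 3 or more was 12.6% when sequences up to 50 bases apart were joined, 8.02% with an overlap of at least 10 bases and 6.80% without genes of non-coding accessions. The last alternative and all those of the exon-end share were chosen after seeing the data. The cause of these shifts was not tested beyond what each alternative leaves out. Depth is unknown, so neither the abundance of a sequence nor how many were missed can be given.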
